A study of Drosophila melanogaster with 3 samples.

Results

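The 6 genes described here are spz, Tl, tub, pll, cact and dl, the core of the Toll to Dorsal pathway of Drosophila melanogaster. They were taken by gene name from the Ensembl gene models, and all 6 were found among 13945 protein-coding genes on the chromosome arms. Chromatin immunoprecipitation and sequencing had mapped BtbVII, a protein with a BTB domain (a protein interaction domain shared by many chromatin factors), in 3 biological replicates. The embryos, of both sexes and aged 0 to 24 h, came from 1 transgenic line, strain BtbVII-GFP, that stably expresses BtbVII with GFP at its C terminus, and chromatin was pulled down with an antibody against GFP. All 3 libraries belong to this single group, and no untagged or input sample is among them. The deposited lists were derived with a further file taken to be the control, so samples could not be compared between groups and no test was made. The sources used here do not say which promoter drives the fusion or whether untagged BtbVII remained, nor whether the replicates were separate collections beyond their label. The embryos were used whole, so binding in few cells and weak binding in many cells cannot be told apart.

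In the early embryo, Toll signalling sets up the axis from back to belly. Spätzle, the product of spz, is a secreted ligand that is cleaved on the ventral side and activates the receptor Toll. Toll recruits the adaptor Tube and the kinase Pelle, Cactus is degraded, and the NF-κB family factor Dorsal enters ventral nuclei, where it activates genes such as twi and sna and represses others such as zen. The same pathway later controls antifungal and antibacterial defence, with Dif beside Dorsal.

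Every value below comes from ranked region lists. A candidate is a region of the pooled list, which holds 30000 regions from the 3 replicates together, and its signal is the authors' peak caller's value. The authors labelled this list as peaks and background together, so a candidate of lower signal need not be a binding site. Rank 1 is the highest signal in a list. A strong summit belongs to the optimal set of 5219 regions left by the authors' reproducibility threshold. These are the 5219 pooled regions of highest signal, down to 172.4. Membership does not mean support in each replicate. For 4.73% of the set, 1 or more replicates had no region that held the summit. At the genes described here, the authors' −log10 q-value was 3.01 or more for strong summits. For the lower-signal candidates it ran from 0.21, at a cact candidate, to 2.4, at a dl candidate. Signal scales differ between lists, the highest value being 1495 in replicate 1, 1554 in replicate 2 and 765 in replicate 3, so replicates were compared by rank. A gene was given every summit in its body or within 1000 bp of it. Read depth is not known from these lists.

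BtbVII signal was strongest at cact, the gene for the pathway's inhibitor, followed by dl, the gene for its transcription factor. Strong summits lay at 4 of the 6 genes: 3 at cact, 2 at dl, 1 at pll and 1 at Tl. The genes for the ligand and the adaptor, spz and tub, had only candidates of lower signal. Among all protein-coding genes, 29.1% had a strong summit by the same rule, and the share grew with gene length. It was 19.3% for genes under 3 kb, 36.9% for genes of 3 to 10 kb, 56.2% for genes of 10 to 30 kb and 63.3% for genes of 30 kb or more. In the classes with the higher shares lay dl, cact and Tl, which had strong summits. Of the 2 genes under 3 kb, pll had a strong summit and tub did not, and spz, the only 1 of the 6 between 3 and 10 kb, had none. With so few genes, 4 of 6 is a description of these genes and was not tested against the 29.1%.

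**Figure D1:**
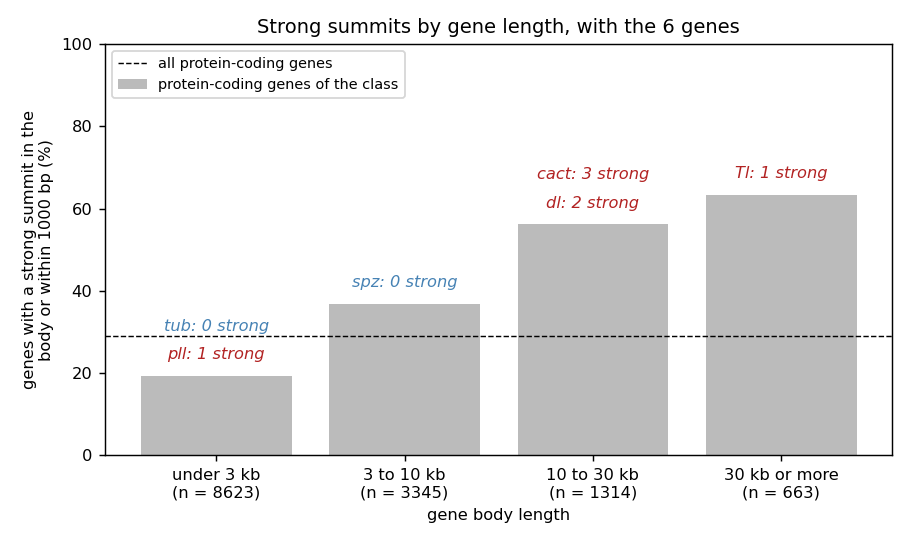
Bars give the percentage of protein-coding genes with a strong summit in the gene body or within 1000 bp, for 4 classes of gene body length, and the dashed line gives all protein-coding genes (29.1%). The labels place the 6 genes in their class with their number of strong summits: cact and dl stand in a class where 56.2% of genes have a strong summit, and pll and tub in a class where 19.3% do.

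In all, 44 candidate summits lay at the 6 genes, 7 strong and 37 of lower signal. By position in the gene itself, 30 were in introns, 9 outside the gene and 5 in exons. Any region of replicate 1 held 35 of the 44, any region of replicate 2 held 34 and any region of replicate 3 held 31; 23 were held in all 3 replicates and 2 in none. Over the whole pooled list, 41.8% of candidates were held in all 3. Some neighbouring pooled summits fell in the same replicate region and so share its rank.

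**Figure D2:**
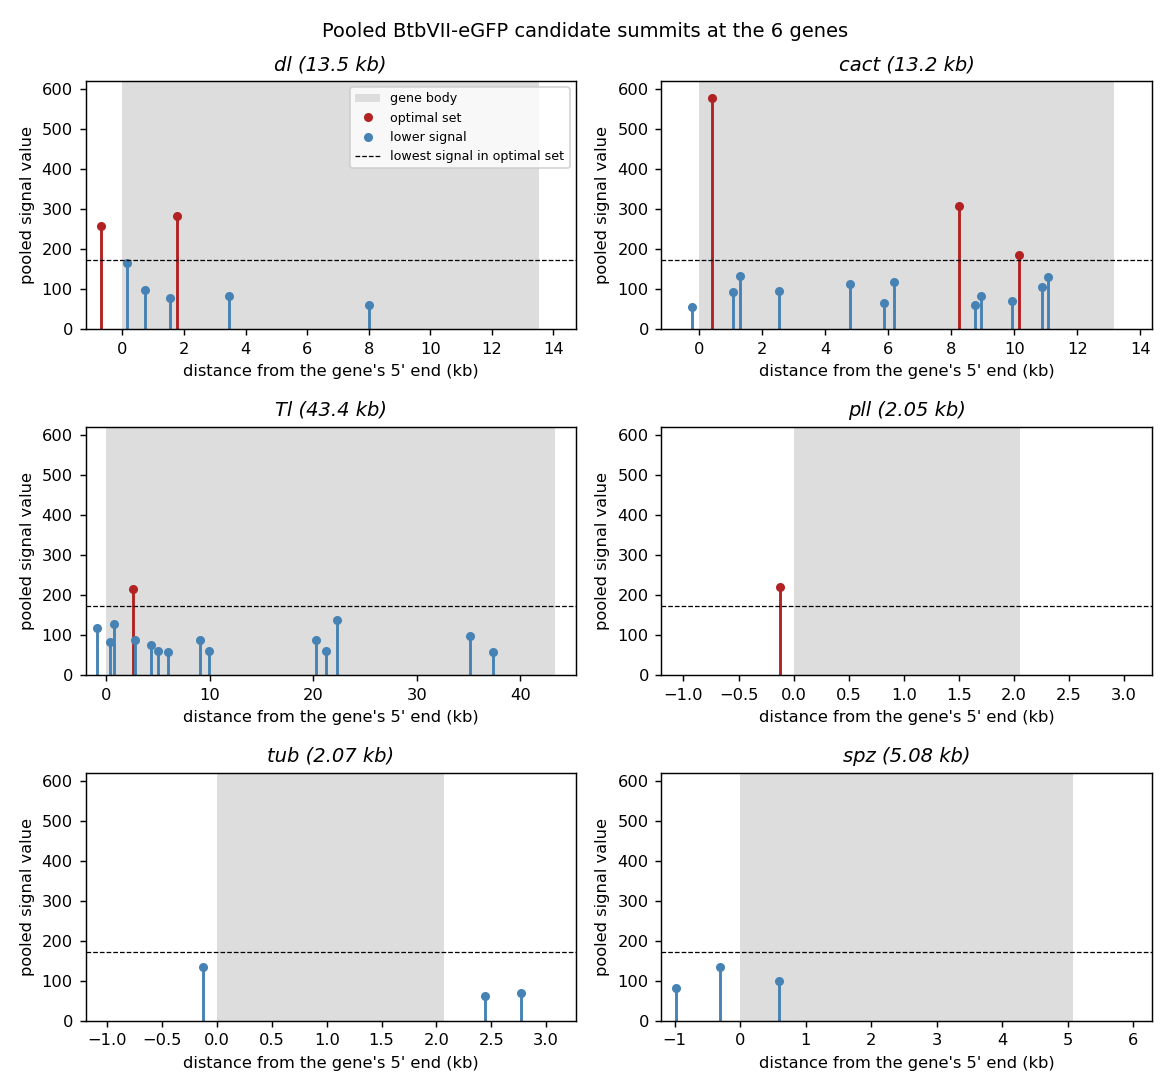
For each gene, points give the pooled signal value of every candidate summit (vertical axis) against its distance in kb from the gene's 5′ end (horizontal axis, negative upstream), with the gene body shaded. Red points are in the optimal set, blue points are not, and the dashed line is the lowest signal in that set, 172.4; the tallest point is the cact summit at 577.5.

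The ligand gene spz (FBgn0003495, 3R, 27064990 to 27070070, minus strand) had 3 candidates and no strong summit. Its best lay 311 bp upstream of its only annotated transcription start site (TSS), at 27070156 to 27070605, with a signal of 134.5 and a pooled rank of 7740. The rank of this region was 11265 in replicate 1, 12928 in replicate 2 and 2523 in replicate 3. Replicate 3 alone placed it among its own 5219 regions of highest signal. Among the 3345 genes of 3 to 10 kb, 908 of which had no candidate, 46.9% had a better best rank than spz. A second candidate, in the 5′ UTR, had its summit 590 bp past the start (signal 99.1), and a further one 973 bp upstream (signal 82.1), which only replicate 2 held.

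The receptor gene Tl (FBgn0262473, 3R, 26799041 to 26842403, plus strand), the longest of the 6 at 43.4 kb, had 15 candidates but 1 strong summit. The strong one lay in an intron, 2567 bp downstream of the single annotated TSS, in the region 26801383 to 26801832, with a signal of 215.9 and a pooled rank of 3592. Its rank was 4055 in replicate 1, 3946 in replicate 2 and 6709 in replicate 3, so replicate 3 placed it outside its 5219 regions of highest signal. The other 14 ran from 56.7 to 137.5 in signal. The highest of these 14 lay 22262 bp into the gene at rank 7480, and was held by a region of rank 10747 in replicate 1 and 5370 in replicate 2, with no region in replicate 3. At the Tl promoter, a candidate 925 bp upstream had a signal of 116.8, one in the 5′ UTR at 408 bp had 82.4 and one at 721 bp had 127.5. Only 4 of the 15 Tl candidates were held in all 3 replicates. Among the 663 genes of 30 kb or more, 40.4% had at least 15 candidates and 53.5% had a better best rank.

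The adaptor gene tub (FBgn0003882, 3R, 4387742 to 4389813, plus strand) had 3 candidates and no strong summit. The best lay 132 bp upstream of its only TSS, at 4387385 to 4387834, with a signal of 134.9 and a pooled rank of 7693. Replicate 2 gave this region rank 4867 and replicate 3 gave it rank 3033, while no region of replicate 1 overlapped it. In 2 replicates, then, the tub promoter stood among the 5219 regions of highest signal, and in replicate 1 it was not in the list. The other 2 candidates lay beyond the 3′ end of tub, 183 and 145 bp from a TSS of CG14646, with signals of 61.6 and 69.7.

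The kinase gene pll (FBgn0010441, 3R, 27251131 to 27253182, minus strand) had a single candidate, and it was strong. Its summit lay 126 bp upstream of the pll start and 122 bp from a TSS of TfIIA-L, the gene for a large subunit of the general factor TFIIA. The region, 27253083 to 27253532, had a signal of 220.0 and a pooled rank of 3469. Replicate 1 gave it rank 2957 and replicate 3 rank 7109, and no region of replicate 2 overlapped it. Of all strong summits, 1.17% were held by no region of replicate 2. When each summit was counted only for the protein-coding gene with the nearest TSS, this one passed to TfIIA-L and pll had none. Of genes under 3 kb, 13.9% had a better best rank than pll and 25.8% a better one than tub. Such shares, here and for the other genes, count genes without a candidate in the total. In this class, 4257 of 8623 genes had none.

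The best upstream summits of pll and tub are shown because both of these short genes have their best candidate within 132 bp of the start. Each sequence runs 100 bp to either side of the summit, 5′ to 3′ on the strand of the gene, from the RefSeq Release 6 sequence, whose coordinates are those of dm6. Capitals mark matches, on either strand, to CACACA or to a κB-like pattern (GGG, any 5 bases, CC) of the kind that NF-κB family proteins bind.
pll, chr3R:27253208-27253408, minus strand: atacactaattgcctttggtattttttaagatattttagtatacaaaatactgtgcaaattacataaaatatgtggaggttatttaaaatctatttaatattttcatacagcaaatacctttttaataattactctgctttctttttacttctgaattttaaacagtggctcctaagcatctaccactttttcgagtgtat
tub, chr3R:4387510-4387710, plus strand: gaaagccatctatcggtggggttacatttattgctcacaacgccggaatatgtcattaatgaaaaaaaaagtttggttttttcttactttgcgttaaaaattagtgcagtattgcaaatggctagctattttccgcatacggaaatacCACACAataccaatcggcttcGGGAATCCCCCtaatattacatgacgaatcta
The pll window had 25.9% G and C and none of the 5 patterns searched. The tub window had 37.8% G and C, 1 CACACA match and 2 overlapping κB-like matches, which read as 1 stretch of capitals.

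The inhibitor gene cact (FBgn0000250, 2L, 16313036 to 16326207, minus strand) encodes the IκB protein that holds Dorsal in the cytoplasm. It had 15 candidates, 3 of them strong, and the highest-ranked region of all 6 genes. That region, 16325711 to 16325894, had a signal of 577.5 and a pooled rank of 591. It lay among the 4 annotated starts, 176 bp upstream of the nearest and 406 bp into the longest transcript, where it is intronic. Its rank was 860 in replicate 1, 462 in replicate 2 and 487 in replicate 3, with replicate signals of 188.0, 273.1 and 128.7. All 3 replicates therefore placed it among their highest 860 regions. Only 5.34% of all protein-coding genes, and 12.2% of those of 10 to 30 kb, had a better best rank.

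The other strong summits of cact were intronic and far from a start. When each summit was counted only for the protein-coding gene with the nearest TSS, neither of them was counted for cact. At 7448 bp downstream of the nearest TSS, the region 16317903 to 16318111 had a signal of 308.5 and a pooled rank of 1907, with ranks of 1863, 3274 and 1700 in replicates 1, 2 and 3. A further 1908 bp downstream, the region 16315839 to 16316288 had a signal of 185.5, close to the lowest strong value, and a pooled rank of 4620. Its ranks were 7217 in replicate 1, 5970 in replicate 2 and 2742 in replicate 3, so only replicate 3 placed it among its highest 5219. The 3 strong summits spanned 9737 bp. The remaining 12 cact candidates ran from 54.5 to 133.6 in signal, and 12 of the 15 were held in all 3 replicates. Within 10 to 30 kb, 16.2% of genes had at least 3 strong summits and 7.69% had at least 15 candidates, against a median of 5.

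The promoter summit of cact is shown as the strongest, and the intronic one at 7448 bp as the only strong summit of the 6 genes with a GAGAGA or κB-like match. Both are 201 bases, minus strand, and capitals mark matches to the patterns searched, on either strand.
cact promoter, chr2L:16325701-16325901: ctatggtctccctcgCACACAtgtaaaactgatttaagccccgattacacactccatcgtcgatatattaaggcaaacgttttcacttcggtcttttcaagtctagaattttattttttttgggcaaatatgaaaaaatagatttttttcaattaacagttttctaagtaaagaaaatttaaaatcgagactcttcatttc
cact intron, chr2L:16317872-16318072: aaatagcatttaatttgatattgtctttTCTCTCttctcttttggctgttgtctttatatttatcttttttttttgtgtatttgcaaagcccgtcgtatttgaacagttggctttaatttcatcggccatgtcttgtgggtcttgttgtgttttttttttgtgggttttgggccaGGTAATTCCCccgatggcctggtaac
The promoter window had 31.8% G and C and 1 CACACA match. The intronic window had 36.8% G and C, 1 GAGAGA match, read on this strand as its complement, and 1 κB-like match.

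The gene dl (FBgn0260632, 2L, 17436830 to 17450364, minus strand), which encodes Dorsal, had 7 candidates, 2 of them strong. The higher lay 84 bp upstream of an internal TSS at the region 17448369 to 17448818, within an intron of the longer transcripts, with a signal of 281.9 and a pooled rank of 2230. Replicates 1, 2 and 3 gave it ranks of 2979, 2182 and 3913, so every replicate placed it among its highest 5219. The other strong summit lay 681 bp upstream of the gene, at 17450820 to 17451269, 551 bp from a TSS of lncRNA:CR46204, with a signal of 257.9 and a pooled rank of 2614. Its rank was 2027 in replicate 1 and 1803 in replicate 2 but 19024 in replicate 3. That is a 10.6-fold spread of ranks, and 1.49% of the strong summits held in all 3 replicates had a spread as wide, where the median was 2.1-fold. The remaining 6 strong summits at the pathway genes had spreads of 1.7-fold to 2.63-fold, except that of pll, which had no rank in replicate 2.

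The start of the longest dl transcripts carried a candidate just under the strong set, in the 5′ UTR 133 bp from the TSS, with a signal of 164.7 and a pooled rank of 5626. Its ranks were 2924, 5735 and 12944 in replicates 1, 2 and 3. The other 4 candidates of dl, all intronic, ran from 60.9 to 99.0 in signal. Of the genes of 10 to 30 kb, 31% had at least 2 strong summits and 33.9% had a better best rank than dl.

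The sequence at the internal start of dl is shown because this is the dl summit that all 3 replicates ranked high. It is cut to the 184 bases before the annotated 5′ UTR.
dl, chr2L:17448511-17448694, minus strand: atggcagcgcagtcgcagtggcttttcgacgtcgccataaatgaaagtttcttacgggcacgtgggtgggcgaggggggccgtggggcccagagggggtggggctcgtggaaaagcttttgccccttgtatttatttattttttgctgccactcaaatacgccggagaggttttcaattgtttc
The full window of 201 bases had 52.7% G and C, the highest of the 7 strong windows, and the lowest was 24.4% at Tl. Over all 5219 strong summits the mean was 37.7% ± 8.16 (SD over summits), and over the lower-signal candidates it was 40.6% ± 8.11. No pattern searched was present in this dl window.

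Ordered by best pooled rank, the genes ran cact, dl, pll, Tl, tub and spz. The replicate ranks of the best cact region (462 to 860) did not overlap those of the best dl region (2182 to 3913). The ranges of dl and pll (2957 and 7109 in the 2 replicates that held it) overlapped, as did those of pll and Tl (3946 to 6709), of Tl and tub (3033 and 4867), and of tub and spz (2523 to 12928). Only the first step of the order, from cact to dl, was therefore wider than the spread between replicates. The median best rank of the 6 genes was 3530.5, against 5702 for the 8596 protein-coding genes with a candidate. These medians were not matched for gene length. Longer genes have more candidates to take the best from, on average 0.922 per gene under 3 kb and 15 per gene of 30 kb or more.

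**Figure D3:**
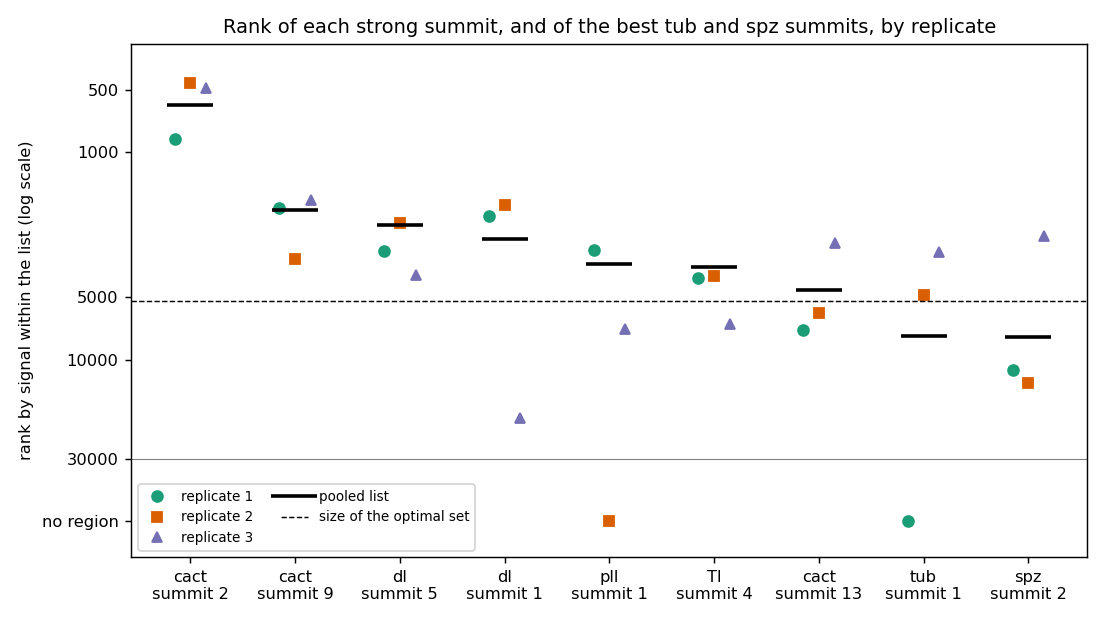
Rank within each list (vertical axis, log scale, highest signal at the top) of the 7 strong summits and the best tub and spz summits, ordered by pooled rank; numbers after the gene count its candidate summits from the 5′ side. Symbols are the 3 replicates, black bars the pooled list, and "no region" means that no region of that replicate held the summit, as for pll in replicate 2 and tub in replicate 1.

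The number of strong summits depended on the replicates required. Of the 7, replicate 1 placed 6 among its highest 5219 regions, replicate 2 placed 5 and replicate 3 placed 4. All 3 replicates did so for 3 summits, 2 of them at cact and 1 at dl, while exactly 2 did so for 2 summits and 1 did so for 2 summits. Over the whole optimal set, 58.9% of summits were supported by all 3. With support from all 3 required, 2 of the 6 genes, cact and dl, kept a strong summit, beside 19.5% of all protein-coding genes. The same 2 genes were left when replicate 1 or replicate 2 was set aside and support from both others was required, and 3 genes, cact, dl and Tl, when replicate 3 was set aside. Among the 37 lower-signal candidates, 8 stood among the highest 5219 regions of at least 1 replicate. The share over all lower-signal regions is not given here. Some of the 8 took the rank of a replicate region that also held a strong summit, as in replicate 1 at dl (rank 2979) and at Tl (rank 4055).

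Across the 7 strong windows, 1 held GAGAGA, 2 held CACACA, 1 held the κB-like pattern, and none held TATCGATA, the DNA replication-related element, or CAGGTAG, a site of the early activator Zelda. Both strands were searched, and overlapping matches were counted once per window. Of all strong windows, 13.5% held GAGAGA, 18.6% CACACA, 7.84% the κB-like pattern, 1.99% TATCGATA and 0.92% CAGGTAG. Of the lower-signal windows, 10% held GAGAGA, 20.2% CACACA, 10.8% the κB-like pattern, 1.12% TATCGATA and 0.807% CAGGTAG. These matches are descriptions of letters and do not show binding.

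The genes outside the 6 whose best region had the most similar replicate ranks were found by summing the absolute differences of log10 rank over the 3 replicates. For cact this was RpL34a (ranks 835, 428 and 447, sum 0.083), for dl Pcif1 (2914, 2295 and 3852, sum 0.038), for Tl Vkor (4088, 4005 and 7115, sum 0.035) and for spz CG43702 (11281, 12171 and 3558, sum 0.176). The measure could not be had for pll and tub, which lacked a rank in 1 replicate.

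A further 80 genes of the pathway or related to it, called further pathway genes here, were grouped by role. They include paralogs and immune genes that need not act in the dorsoventral pathway. Of the 80 genes, 30 (37.5%) had a strong summit, beside 29.1% of all protein-coding genes. The share was highest for intracellular signalling genes, at 11 of 18 (61.1%), whose median body length was 6.96 kb. It was 13 of 26 (50%) for target genes of Dorsal (median 5.85 kb) and 4 of 15 (26.7%) for the extracellular cascade (2.08 kb). For paralogs of Toll and Spätzle (6.4 kb) it was 2 of 11 (18.2%), and for immune effector genes (0.429 kb) 0 of 10. The list of Dorsal target genes does not separate direct targets from genes further downstream. Gene length differs between these lists, and its part in the shares was not tested. A summit given to a gene can lie nearer the start of another. Counted only for the protein-coding gene with the nearest TSS, strong summits were left at 25 of the 80 genes.

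Among intracellular genes, Gprk2, a G protein-coupled receptor kinase gene that acts in Toll signalling, had the strongest region, with a signal of 2170.2, a pooled rank of 13 and ranks of 18, 9 and 20 in replicates 1, 2 and 3. Next came Dsp1, an HMG-box corepressor gene that works with Dorsal (940.7, rank 204), Dif, a second NF-κB factor gene (865.9, rank 244), gro, the corepressor Groucho (784.4, rank 299), and cic, the repressor Capicua (548.5, rank 646). Myd88, the adaptor that joins Toll to Tube, had 381.8 at rank 1286, with ranks of 1927, 861 and 1583, against no strong summit at tub. The ubiquitin ligase gene Pli, whose product binds Pelle, had 356.5 at rank 1469. Lower strong signals were at Traf4 (234.1), Deaf1 (219.8), Traf6 (214.8) and Rel (212.8), and replicate 3 held no region at the Traf6 or Rel summits.

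In the extracellular cascade, GNBP3, a fungal pattern receptor gene, had 527.6 at rank 697, pip, a sulfotransferase gene that marks the ventral eggshell, 317.5 at rank 1820, Spn27A, a serpin gene that restrains the protease Easter, 315.6 at rank 1835, and GNBP1 174.0 at rank 5135. Of the paralogs, Toll-7 had 1342.4 at rank 80, with ranks of 77, 74 and 113, and Tollo had 230.8 at rank 3206. Tl, with 215.9, was thus below both of these receptor genes in the pooled list. The replicate ranks of Tollo (4182, 3309 and 5821) overlapped those of Tl (4055, 3946 and 6709), so these 2 did not differ beyond the spread. Those of Toll-7 did not overlap those of Tl.

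Of the Dorsal target genes, the 13 with a strong summit were sim (763.9, rank 317), brk (680.7, rank 406), ths (544.7, rank 656), vn (482.0, rank 838), tin (438.4, rank 985), Mef2 (412.4, rank 1113), sog (375.4, rank 1342), T48 (273.6, rank 2350), pyr (226.4, rank 3327), htl (220.6, rank 3455), Doc1 (184.3, rank 4665), Ance (176.4, rank 5026) and fog (175.5, rank 5065). The mesoderm regulator genes twi and sna had none. The best twi region lay just under the strong set (163.6, rank 5680, with ranks of 6587, 6128 and 7145), and that of sna had 90.0 at rank 14086. Mef2, a muscle regulator gene, and sog, which encodes an antagonist of Dpp, had the most strong summits, 7 and 4. Both are long genes (45363 and 30152 bp), and 30.2% of genes of 30 kb or more had at least 3 strong summits. Some of the 13 genes lie at the low end of the strong set: replicate 3 held no region at the Doc1 summit and gave that of fog rank 19331. With support from all 3 replicates required, strong summits were left at 7 of 18 intracellular genes, 8 of 26 Dorsal targets, 3 of 15 extracellular genes and 1 of 11 paralogs. That is 19 of the 80 genes, and 19.5% of all protein-coding genes had a strong summit under the same requirement.

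**Figure D4:**
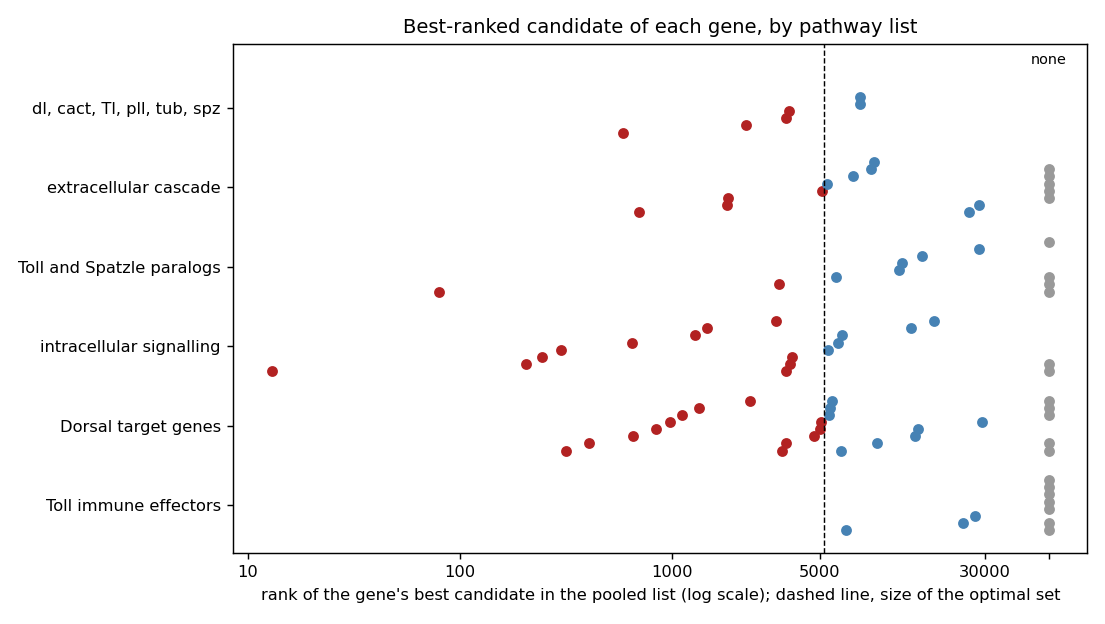
Each point is a gene, placed by the rank of its best candidate in the pooled list (horizontal axis, log scale), with the 6 genes in the top row and the 5 further pathway lists below. Red points are genes with a strong summit, blue points have only lower-signal candidates, grey points have no candidate, height within a row only separates points, and the dashed line marks rank 5219; the leftmost point is Gprk2 at rank 13.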

How the data were processed

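Chromatin immunoprecipitation sequencing of GFP-tagged BtbVII was carried out in 3 libraries of whole embryos, and the labels state sonication and fragment sizes of 200 to 800 without a unit. The authors deposited narrowPeak lists whose signal values come from their peak caller, and per the deposited README files each replicate list was derived from that replicate's alignment and 1 further file. The authors' −log10 q-value per region was left out of the ranking. The sources used here give no caller, aligner or reproducibility threshold. Lists on the older build dm3 were not used here.

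Regions were ranked by signal within each dm6 list. A pooled summit took the rank of the best replicate region that held it. Positions were compared with Ensembl release 115 gene models (BDGP 6.54) and the RefSeq Release 6 sequence, whose arms hold every dm6 region, with Python 3.11.15, pandas 2.3.3 and numpy 2.4.6. Windows of 100 bp to either side of a summit were searched for 5 patterns. Shares over genes are counts over the whole annotation. The assignment of summits to genes was checked on simulated data. The lists hold immunoprecipitation signal and no expression values, so the labelled tissue could not be checked against expressed markers.

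All 6 genes, every strong summit and every further pathway gene with a strong summit are named. The genes and pathway lists were chosen with earlier results of these data known, and the length classes after the lengths of the 6 genes were seen. Alternatives varied the window, the assignment to genes, the strong set and the replicates required.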

Additional observations from a re-analysis of the deposited data

How the results depend on the processing

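Of the 6 genes, cact had the best-ranked region in the pooled list and in each replicate. The share of all protein-coding genes with a strong summit, 29.1% in the report, was 14.6% in gene bodies alone, 25.8% with 500 bp around the gene, 34.8% with 2000 bp, 22.4% within 1000 bp of any TSS and 19.4% when a summit counted only for the nearest protein-coding TSS. It was 19.5% for strong summits in the highest regions of all 3 replicates, 17.8% for the higher-signal part of the optimal set, cut at its middle rank, and 28.1% for those held by any region of all 3, and it ran from 21% to 22.9% without a replicate. The 4 genes with a strong summit became 2 with support from all 3 replicates, 2 in the higher-signal part, and 2 to 3 without a replicate. In gene bodies alone, by nearest TSS and when any region of all 3 replicates had to hold the summit, 3 were left and pll was lost. Within 1000 bp of any TSS, 3 were left and Tl was lost. The 7 strong summits became 4 near a TSS, 4 by nearest TSS, 3 with support from all 3 replicates, 3 in the higher-signal part and 3 to 5 without a replicate. The 30 further pathway genes became 19 in gene bodies alone, 19 with support from all 3 replicates and 19 in the higher-signal part. They stayed within 1.5 times, at 20 to 25, without a replicate. By nearest TSS 25 were left, and within 1000 bp of any TSS 21. With 50 bp to either side of the summit, GAGAGA was in 0 of the 7 windows, CACACA in 1 and the κB-like pattern in 0, and with 200 bp the κB-like pattern was in 3. The sets that require replicates hold fewer regions by construction; other causes were not tested. The number of candidates at the 6 genes stayed between 35 and 48 for all windows tried. Depth is unknown, so a region missing from a replicate list cannot be read as absence of binding.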

Other observations

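Dorsal's gene lies beside that of Dif, the other NF-κB factor of the Toll pathway, with 3668 bp between the gene bodies on 2L. The strongest region of Dif (17430031 to 17430419, signal 865.9) had its summit 6631 bp beyond the 3′ end of dl and 18395 bp from the nearest strong dl summit, and it ranked 162, 407 and 297 in replicates 1, 2 and 3. The best dl region had a signal of 281.9 and ranks of 2979, 2182 and 3913, so the replicate ranks of the neighbours did not overlap. Upstream of cact, a candidate of low signal (54.5, pooled rank 28729) lay 233 bp from a cact start and 629 bp from a TSS of CG4278, and all 3 replicates held it.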
